A study of Mus musculus with 16 samples.

Results

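The MHC class II genes examined here were 10 of the 22675 genes listed in both deposited tables of the series. They were chosen by name: the chains of the classical class II molecules (H2-Aa, H2-Ab1 and H2-Eb1), the chains of the peptide exchange factor H2-DM (H2-DMa, H2-DMb1 and H2-DMb2), those of its inhibitor H2-O (H2-Oa and H2-Ob), the invariant chain Cd74 and the transactivator Ciita. All 10 were among the 10687 genes abundant enough to be tested. The 8 H2 genes lie in the class II region of chromosome 17, between positions 34092340 (start of H2-Oa) and 34316674 (end of H2-Eb1) of GRCm38. Ciita lies on chromosome 16 (10480059 to 10528418) and Cd74 on chromosome 18, so both are outside the region. The counts cover coding exons only. RNA was sequenced from splenic B cells of immunized C57BL/6 mice that carried the Zfp318 allele ZSDAT, AID-Cre (Cre recombinase under control of the activation-induced deaminase gene) and the B1-8hi heavy chain with GFP. The libraries formed 4 groups of 4. KOTP and HetTP were tdTomato-positive cells of ZSDAT/ZSDAT and ZSDAT/+ mice, and KOTN and HetTN were tdTomato-negative cells of the same genotypes. All cells were sorted as B220+, CD138-, GL7-, FAS-, CD38+, IgD- and NIP-binding at 7 days after NP-OVA with LPS and alum, about 1000 cells per library. No group without AID-Cre, without the B1-8hi heavy chain or without immunization was analysed here, and the labels do not say whether libraries of a group came from separate animals. P-values therefore measure the spread between these libraries, which may be technical.

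MHC class II molecules are αβ heterodimers that display peptides from endosomes to CD4 T cells, and B cells use them to obtain T cell help. The invariant chain fills the groove of new αβ dimers and guides them to endosomes, where cathepsins cut it down to the CLIP fragment. H2-DM then exchanges CLIP for other peptides, and H2-O, which is found mostly in B cells, restrains H2-DM. Ciita is a coactivator without DNA binding of its own. It is recruited to class II promoters by RFX, CREB and NF-Y proteins bound to the X and Y boxes. C57BL/6 mice lack a working H2-Ea gene, so H2-Eb1 is transcribed but its product has no α chain partner of its own.

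The X and Y boxes are shown because they are the control element that class II genes are known to share. RefSeq promoter windows (GRCm38.p6, 250 bases before to 50 bases after a transcription start) were at hand for 7 members, namely H2-Aa, H2-Eb1, H2-DMa, H2-DMb1, H2-DMb2, H2-Oa and H2-Ob. H2-Ab1, Cd74 and Ciita had no entry. In 6 of the 7, all but H2-DMa, letters of the X box (CNNNNAAC) were followed after 24 to 27 bases by letters of the Y box (GATTGG) on the strand of the gene. The stretches below run 5′ to 3′ on the gene strand with both sets of letters in capitals.
H2-Aa: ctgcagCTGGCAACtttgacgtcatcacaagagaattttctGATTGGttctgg
H2-Eb1: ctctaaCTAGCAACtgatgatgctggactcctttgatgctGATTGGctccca
H2-DMb1: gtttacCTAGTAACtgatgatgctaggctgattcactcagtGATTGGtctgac
H2-DMb2: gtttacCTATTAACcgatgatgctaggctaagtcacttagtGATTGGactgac
H2-Oa: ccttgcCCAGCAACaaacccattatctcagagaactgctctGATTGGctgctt
H2-Ob: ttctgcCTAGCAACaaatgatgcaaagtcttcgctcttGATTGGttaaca

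These stretches lie at chr17:34287861-34287913 (minus strand) for H2-Aa and, on the plus strand, at chr17:34305767-34305818 for H2-Eb1, chr17:34153088-34153140 for H2-DMb1, chr17:34145117-34145169 for H2-DMb2, chr17:34092294-34092346 for H2-Oa and chr17:34238809-34238858 for H2-Ob. The spacing between the capitals was 27 bases in H2-Aa, H2-DMb1, H2-DMb2 and H2-Oa, 26 in H2-Eb1 and 24 in H2-Ob. The X letters began between 126 and 79 bases before the annotated start. The letters and the spacing were set after the windows had been read, so the count in members is a description. Of 32851 mouse promoter windows, 0.0974% held the pair on the gene strand and 0.228% on either strand. The Y letters alone were in 8.71% of windows on the gene strand (16.1% on either strand), and the X letters alone in 56.3% (81.6%). A letter match does not show that a factor binds there.

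**Figure D1:**
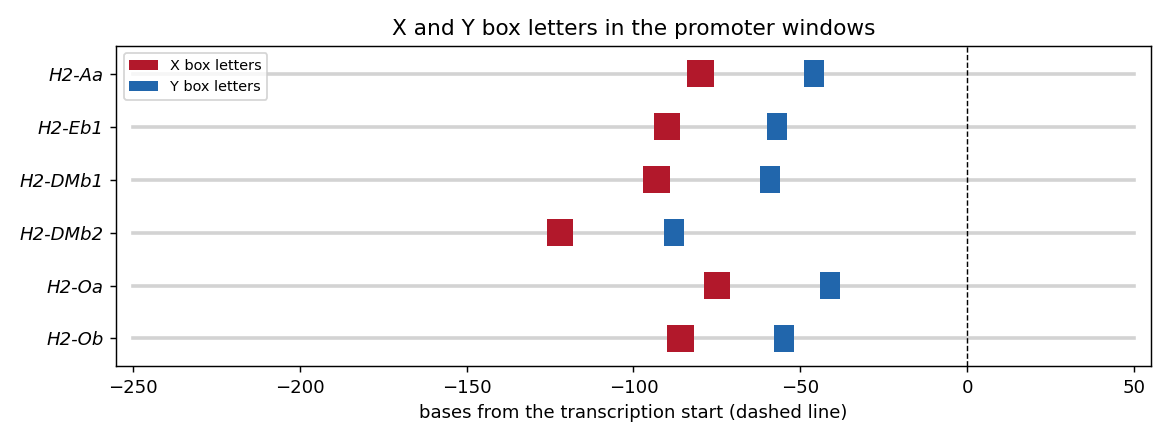
Positions of the X box letters (red) and the Y box letters (blue) in the promoter windows of 6 class II genes, in bases from the annotated transcription start (dashed line at 0). In each gene the X letters lie upstream of the Y letters, with 24 to 27 bases between them.

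The libraries held between 7748787 and 14325276 counts over coding sequence in KO groups and between 8099655 and 15742445 in Het groups. Levels are given as CPM, per-million counts relative to the TMM-scaled library total, and differences as edgeR log2 fold changes, on which a value of 1 is a 2-fold change. The genotypes were deposited as separate tables, so a difference between the tables, in handling or in batch, cannot be told apart from a difference between KO and Het. The tables did differ. Per mapped read, as implied by the deposited per-million columns, whose divisor is not stated, KO libraries held 0.369 to 0.419 counts and Het libraries 1.35 to 1.502. Tested genes without a count made up 1.52% to 2.34% in KO libraries against 7.02% to 13.6% in Het libraries. Zfp318, the targeted gene, had 0.912 to 2.92 CPM in KOTP cells against 83.9 to 121 CPM in HetTP cells, and 0.468 to 5.83 CPM in KOTN cells against 71.0 to 153 CPM in HetTN cells. Zfp318 transcripts in HetTP and HetTN libraries overlapped (log2 fold change -0.21, SE 0.43, edgeR adjusted p = 0.886).

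Class II transcripts were among the most abundant of the cells. Cd74 ranked first of the 10687 tested genes by mean CPM, H2-Ab1 second, H2-Aa 5 and H2-Eb1 6. H2-DMb2 ranked 85, H2-DMa 137, H2-Ob 154, H2-Oa 164, H2-DMb1 524 and Ciita 1357. The 10 genes together took between 5.16% and 5.57% of all counts in KOTP libraries, between 4.41% and 4.94% in HetTP libraries, between 5.14% and 5.37% in KOTN libraries and between 4.61% and 5.98% in HetTN libraries. The share of the family in all counts thus overlapped between KOTN and HetTN libraries, while its makeup did not. Cd74 alone supplied between 21.5% and 27.2% of the family's counts in KOTP libraries against between 45.1% and 47.4% in HetTP libraries, and between 24.6% and 26.2% in KOTN libraries against between 46.5% and 48.2% in HetTN libraries.

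Per kilobase of coding sequence the order of the genes also depended on the genotype. In KOTP cells H2-Ab1 had 18582 ± 773 CPM per kilobase and Cd74 16613 ± 1804 (SD, n = 4), with overlapping ranges. In HetTP cells Cd74 had 23654 ± 976 and H2-Ab1 9645 ± 572 CPM per kilobase, with no overlap. KOTN cells had 18324 ± 406 for H2-Ab1 and 16845 ± 644 for Cd74, and HetTN cells 30145 ± 4038 for Cd74 and 13219 ± 1409 for H2-Ab1. Below these followed, in every group, H2-Aa, H2-Eb1, H2-DMb2 and H2-DMa, then H2-Oa and H2-Ob, then H2-DMb1 and Ciita. Neighbours in this order overlapped for H2-Oa and H2-Ob in HetTP and HetTN cells, for H2-DMb2 and H2-DMa in HetTN cells and for H2-Ab1, Cd74 and H2-Aa in KOTP cells, and otherwise did not. In HetTN cells H2-Oa had 773 ± 80.7 and H2-Ob 783 ± 64.3 CPM per kilobase, while in KOTP cells they had 1628 ± 47.7 and 1447 ± 80.2. Ciita, the regulator, was the lowest at 28.5 ± 3.74 CPM per kilobase in KOTP, 46.4 ± 12.4 in HetTP, 24.5 ± 2.19 in KOTN and 25.0 ± 8.06 in HetTN cells.

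**Figure D2:**
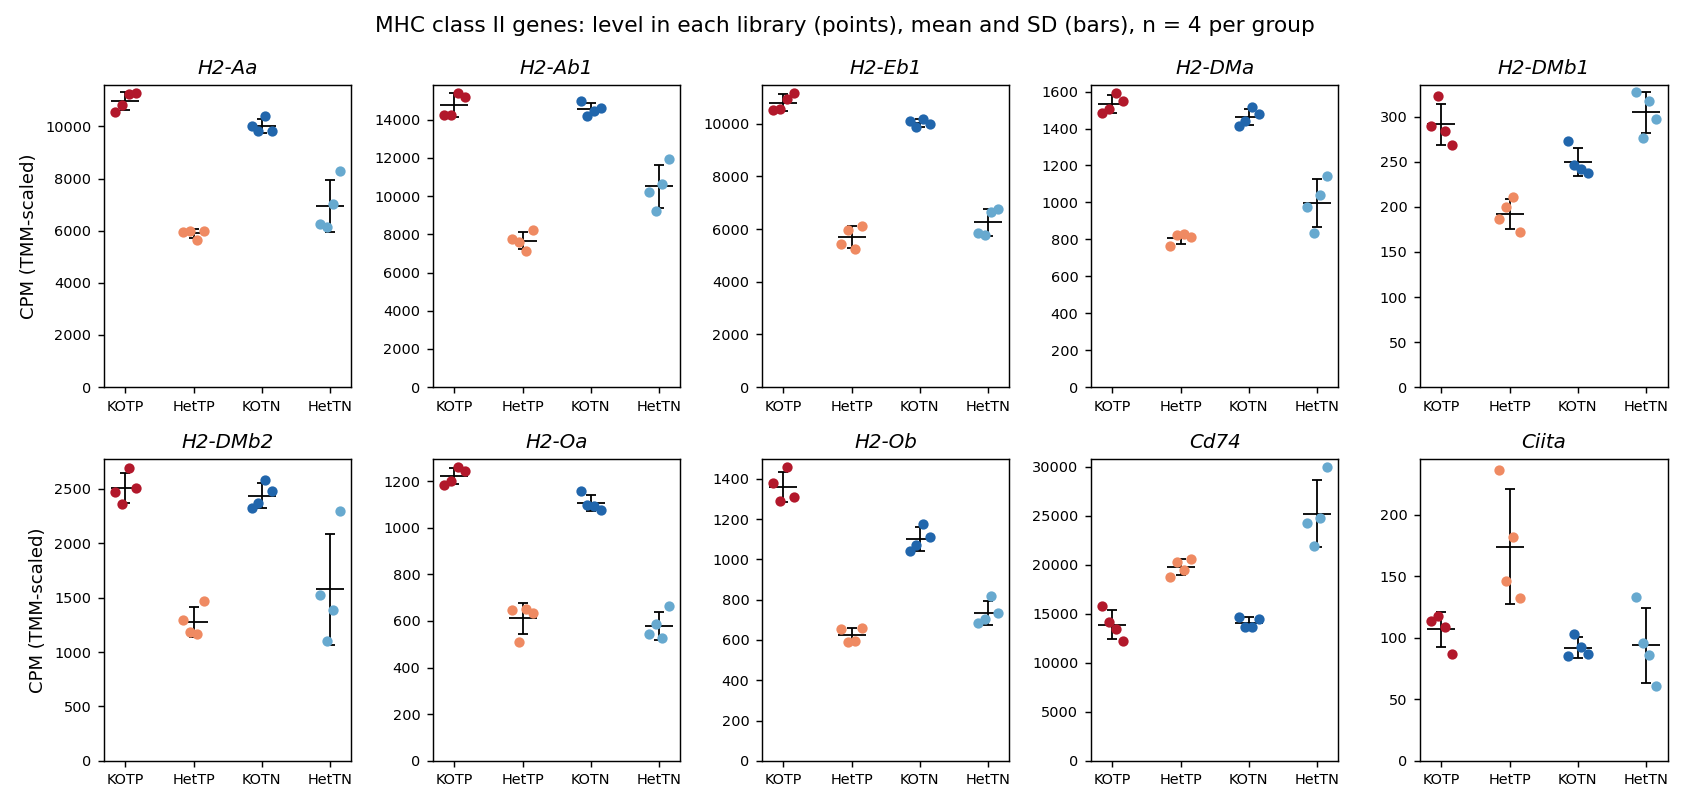
Level of each MHC class II gene in CPM (linear axes from 0), with 1 point per library, and the mean and SD of 4 libraries as bars. The KO libraries lie above the Het libraries of the same sort for H2-Aa, H2-Ab1, H2-Eb1, H2-DMa, H2-DMb2, H2-Oa and H2-Ob, and below them for Cd74.

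In tdTomato-positive cells the genotypes differed in every class II gene. The 8 genes of the αβ, H2-DM and H2-O chains were higher in KOTP than in HetTP cells, by 0.60 to 1.12 on the log2 scale, while Cd74 and Ciita were lower. The comparison asks what the class II program looks like when both copies of Zfp318 carry the allele. The classical β chain gene H2-Ab1 had 14233, 14259.8, 15412 and 15185 CPM in KOTP libraries, against 7745, 7587, 7118 and 8221 CPM in HetTP libraries. Every KOTP library was above every HetTP library (log2 fold change 0.95, SE 0.092, edgeR quasi-likelihood test with Benjamini-Hochberg adjusted p = 3.02e-06). Its α chain partner H2-Aa had 10556, 10805, 11232 and 11264 CPM in KOTP libraries, against 5948, 6003, 5651 and 5988 CPM in HetTP libraries, again without overlap (0.89, SE 0.10, edgeR adjusted p = 9.98e-06). H2-Eb1 averaged 10795 ± 317 CPM in KOTP cells and 5687 ± 416 CPM in HetTP cells (SD, n = 4 each).

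The editors of the peptide cargo followed the same direction. H2-Ob, the β chain of the inhibitor H2-O, had 1378, 1289, 1457 and 1311 CPM in KOTP libraries, against 652, 591, 595 and 659.9 CPM in HetTP libraries, and all KOTP libraries lay above all HetTP libraries. Its log2 fold change of 1.12 (SE 0.10, edgeR adjusted p = 9.97e-07) was the largest of the 10 genes. The α chain H2-Oa averaged 1221 ± 35.8 CPM in KOTP cells and 611 ± 67.9 CPM in HetTP cells (1.00, edgeR adjusted p = 9.98e-06). The H2-DM α chain H2-DMa ranged from 1483 to 1595 CPM in KOTP libraries, against 763 to 829.8 CPM in HetTP libraries (0.93, edgeR adjusted p = 1.23e-05). Among the H2-DM β chains, H2-DMb2 ranged from 2365 to 2696 CPM in KOTP libraries and 1163 to 1470.4 CPM in HetTP libraries (0.98, edgeR adjusted p = 0.000649). H2-DMb1 had 289.8, 323, 285 and 269 CPM in KOTP libraries, against 187, 199.9, 211 and 172 CPM in HetTP libraries, also without overlap but with the smallest difference of the 8 chains (0.60, edgeR adjusted p = 0.00189). H2-DMb1 and H2-DMb2 are near copies. Of the 50-base windows of the longest protein-coding H2-DMb1 transcript, 27.2% also occur in a transcript of H2-DMb2, and 25.2% the other way. These windows include untranslated ends, which the counts do not cover. How reads that map to both genes were counted is not given in the sources used here. The separate values of H2-DMb1 and H2-DMb2 are therefore uncertain.

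Cd74 and Ciita moved against the chains. Cd74 had 15809, 14179, 13437 and 12195 CPM in KOTP libraries, against 18787, 20287, 19512 and 20609 CPM in HetTP libraries. The highest KOTP library was below the lowest HetTP library (log2 fold change -0.51, SE 0.10, edgeR adjusted p = 0.00315). Ciita had 114, 118, 109 and 86.5 CPM in KOTP libraries, against 237, 146, 182 and 132 CPM in HetTP libraries. The groups did not overlap, but HetTP libraries were spread widely and the call was close to the threshold (-0.71, SE 0.22, edgeR adjusted p = 0.0476). It was lost under upper quartile scaling (adjusted p = 0.0911), without the filter on low counts (adjusted p = 0.0584), without HetTP library 1 (adjusted p = 0.163) or 3 (adjusted p = 0.0909), and without any 1 KOTP library (adjusted p between 0.0809 and 0.162).

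Of the 10 genes, 8 were called higher and 2 lower in KOTP than in HetTP cells, where 5.06% of all tested genes were called higher and 5.22% lower (10.3% in either direction). The libraries of the groups did not overlap for any of the 10, with 8 above and 2 below, while 11.4% of all tested genes lay wholly above and 8.71% wholly below. When the 8 compared libraries were fitted alone, 8 were again called higher and 2 lower, against 5.27% and 6.41% of the genes tested there (11.7% in either direction). The median log2 fold change was 0.93 over the 10 genes and -0.026 over all tested genes. Abundance moved with this result. Of the 164 genes at least as abundant as H2-Oa, the class II genes among them included, 64.6% were called higher and 3.66% lower, with a median log2 fold change of 0.66. Of the 1357 genes at least as abundant as Ciita, 22.5% were called higher and 9.29% lower (median 0.15). The lower Cd74 thus stood on the side that few abundant genes took, and the part of abundance in the rise of the chains was not tested. The split of calls over all genes depended on the scaling: 49.2% of calls were higher with TMM, 27.7% with library totals alone and 59.6% with upper quartile scaling. Library totals alone moved the median of all genes to -0.25, and the 8 chains stayed between 0.37 and 0.89, with Cd74 at -0.74.

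Markers of other cells also moved with the genotype. The summed level of 9 T cell markers ranged from 37.4 to 49.8 CPM in KOTP libraries against 205 to 683 CPM in HetTP libraries. Trac (mean 0.057 CPM in KOTP and 264 CPM in HetTP) and Lck (44.3 and 107 CPM) made up most of these sums. Cd4 was at 0 in all 4 groups, and Cd3e, Cd3g and Cd8a were also at 0 in KOTP. The sum of 11 macrophage and monocyte markers ranged from 76.5 to 109 CPM in KOTP against 133 to 733 CPM in HetTP libraries, and that of 6 germinal center B cell markers from 278 to 315 CPM against 607 to 1152 CPM. Of these markers, Adgre1 (means 39.5 CPM in KOTP and 9.85 CPM in HetTP) and Fas (69.4 and 60.3 CPM) went the other way and were not called. Plasma cell markers summed to 79.4 to 115 CPM in KOTP against 236 to 325 CPM in HetTP libraries. The 10 dendritic cell markers, from a cell type rich in class II, summed to 269 to 313 CPM in KOTP and 145 to 269.5 CPM in HetTP libraries. Xcr1 and Clec10a were at 0 in both groups. Most of these sums was Ccr7, which averaged 218 CPM in KOTP and 179 CPM in HetTP cells and was not called (edgeR adjusted p = 0.429). Of the 5 tested dendritic cell markers, 1 was called higher, Flt3, and 0 lower. The 8 B cell markers, which fit the label of the sort, summed to 14716 to 16461 CPM in KOTP and 9328 to 11536 CPM in HetTP libraries. Among them Pax5 went the other way and was called lower (means 45.2 CPM in KOTP and 131 CPM in HetTP). The part of these differences in the class II result was not tested, and in bulk libraries fewer cells of a type and less RNA per cell cannot be told apart.

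In tdTomato-negative cells 7 of the 8 chains were again higher and Cd74 lower, while H2-DMb1 and Ciita were not called. This comparison puts the same question to cells without the reporter. H2-Ab1 had 14977, 14198, 14487 and 14607 CPM in KOTN libraries, against 10229.9, 9235, 10633 and 11939.7 CPM in HetTN libraries, without overlap (0.47, SE 0.091, edgeR adjusted p = 0.00269). H2-Oa had 1155, 1097, 1095 and 1077 CPM in KOTN libraries, against 543, 585, 528 and 663 CPM in HetTN libraries. Every KOTN library was above every HetTN library, with the largest log2 fold change of the family in this sort (0.93, SE 0.11, edgeR adjusted p = 2.71e-05). H2-Aa, H2-Eb1, H2-DMa and H2-Ob rose by 0.53, 0.68, 0.55 and 0.58 on the log2 scale (edgeR adjusted p = 0.00168, 8.26e-05, 0.00186 and 0.000935). H2-DMb2 had 2319.8, 2371, 2582 and 2479 CPM in KOTN libraries, against 1525, 1099, 1383 and 2299 CPM in HetTN libraries. HetTN library 4 lay just under the KOTN libraries, apart from the other HetTN libraries. The call (0.63, edgeR adjusted p = 0.0185) was lost when the 8 compared libraries were fitted alone (adjusted p = 0.101) and without KOTN library 3 (adjusted p = 0.0574).

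Cd74 had 14666, 13661, 13617 and 14453 CPM in KOTN libraries, against 24306, 21918, 24756 and 29944 CPM in HetTN libraries. All KOTN libraries were below all HetTN libraries (-0.84, SE 0.10, edgeR adjusted p = 4.82e-05). H2-DMb1 had 273, 246, 242 and 238 CPM in KOTN libraries, against 328, 276, 317 and 298 CPM in HetTN libraries. The groups did not overlap and KOTN was the lower one, the opposite side from the other chains, but the difference was not called (-0.29, edgeR adjusted p = 0.123). It was called with library totals alone (adjusted p = 0.0456) and with DESeq2 (adjusted p = 0.0234). Ciita averaged 92.1 ± 8.2 CPM in KOTN cells and 93.9 ± 30.2 CPM in HetTN cells (SD, n = 4 each), and its log2 fold change of -0.027 had a 95% interval of -0.51 to 0.45. Its sign changed with the setting.

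Of the 10 genes, 7 were called higher and 1 lower in KOTN than in HetTN cells, against 5.61% of all tested genes higher and 4.88% lower (10.5% in either direction). All KOTN libraries lay above all HetTN libraries for 7 genes and below them for 2, as they did for 12.5% and 7.15% of all tested genes. When the 8 compared libraries were fitted alone, 6 were called higher and 1 lower, against 3.25% and 4.05% of the genes tested there (7.3% in either direction). The median log2 fold change was 0.54 over the 10 genes and 0.0046 over all tested genes. The 164 genes at least as abundant as H2-Oa had a median of 0.42, with 37.8% called higher and 8.54% lower. Over all genes, 53.5% of calls were higher with TMM, 43.1% with library totals alone and 63.5% with upper quartile scaling, which touched no direction among the 8 called class II genes. T cell markers summed to 28.3 to 37.6 CPM in KOTN and 284 to 533 CPM in HetTN libraries. Most of this was Trac (mean 0.0 CPM in KOTN and 280 CPM in HetTN) and Lck (32.2 and 82.5 CPM). Macrophage and monocyte markers summed to 105 to 155 CPM in KOTN and 509 to 1379 CPM in HetTN libraries. Of these, Adgre1 went the other way (42.5 and 12.0 CPM) and was not called. Germinal center B cell markers summed to 429 to 507 CPM in KOTN and 770.3 to 1392 CPM in HetTN libraries. Among them Fas went the other way (means 95.4 and 56.8 CPM) and was not called. Plasma cell markers summed to 111 to 219.5 CPM in KOTN and 273 to 848 CPM in HetTN libraries. Dendritic cell markers summed to 242 to 278 CPM in KOTN and 175 to 228 CPM in HetTN libraries, and B cell markers to 14604 to 15160.3 CPM and 10644.5 to 13937 CPM. Of the B cell markers, Pax5 went the other way and was called lower (means 39.6 CPM in KOTN and 121 CPM in HetTN). Ccr7, which was not called, averaged 175 CPM in KOTN and 166 CPM in HetTN cells and made up most of the dendritic cell sums. Of the 5 tested dendritic cell markers, 1 was called higher and 0 lower. This was Itgax, with 24.3 to 39.0 CPM in KOTN and 0.0 to 0.131 CPM in HetTN libraries. Flt3, Zbtb46, Siglech, Ccr7 and Clec9a also had higher means in KOTN cells. Clec10a, Cd209a and Batf3 had lower ones, and Xcr1 was at 0 in both groups. The part of these differences in the class II result was not tested.

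**Figure D3:**
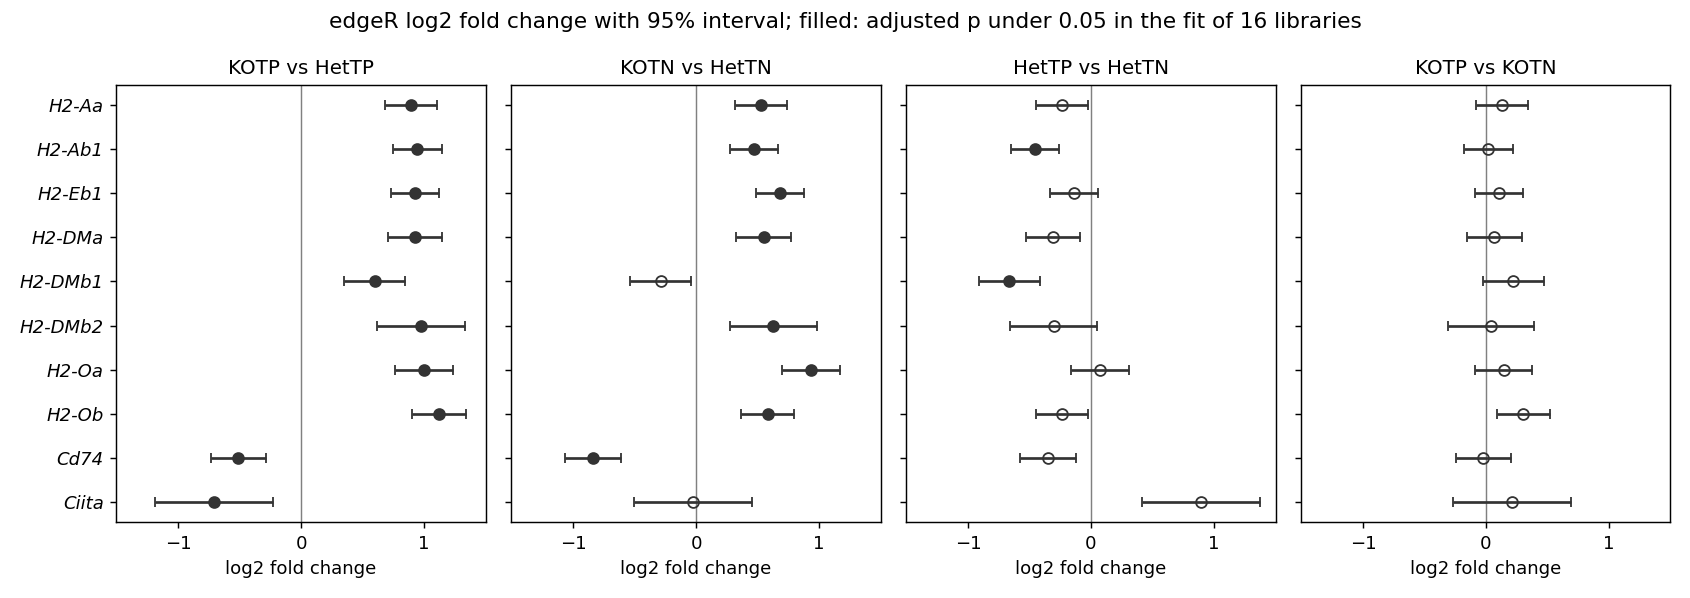
log2 fold change of each MHC class II gene in the 4 pairwise comparisons, with a 95% interval computed from the edgeR test. Filled points have an adjusted p under 0.05 in the fit of 16 libraries. Both KO against Het panels hold most of the filled points, with Cd74 on the left of 0 in each.

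Ratios between class II genes within a library do not depend on its depth or scaling. They can still depend on how each gene was counted, and the genotypes were deposited as separate tables that differed in counts per mapped read. In these ratios too, a difference between the deposited tables that is particular to a gene cannot be told apart from genotype. Of the ratios taken, only Cd74 per H2-Ab1 separated the genotypes in both sorts. Cd74 had 0.945 ± 0.136 counts per H2-Ab1 count in KOTP libraries against 2.59 ± 0.146 in HetTP libraries, and 0.968 ± 0.0217 in KOTN libraries against 2.4 ± 0.0775 in HetTN libraries (SD, n = 4 each). The highest KO library had 1.11 and the lowest Het library 2.33. Ciita had 5.7 to 8.28 counts per 1000 H2-Ab1 counts in KOTP libraries against 16.1 to 30.6 in HetTP libraries, without overlap. In tdTomato-negative cells the same ratio was 5.68 to 7.28 in KOTN and 5.07 to 13.04 in HetTN libraries, which overlapped. H2-DMb2 had 8.49 to 10.7 counts per H2-DMb1 count in KOTN libraries against 3.98 to 7.71 in HetTN libraries, without overlap. It had 7.32 to 9.47 in KOTP against 5.52 to 8.53 in HetTP libraries, which overlapped. H2-Oa had 0.722 to 0.818 counts per H2-DMa count in KOTN against 0.508 to 0.701 in HetTN libraries, without overlap. It had 0.789 to 0.801 in KOTP against 0.62 to 0.85 in HetTP libraries, which overlapped. H2-Eb1 per H2-Ab1 also overlapped only in tdTomato-positive cells, and H2-Aa per H2-Ab1 in both sorts.

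The chains of the classical molecules also shifted against each other between the sorted populations, within each genotype and so within each deposited table. H2-Aa had 0.729 to 0.758 counts per H2-Ab1 count in KOTP libraries and 0.669 to 0.717 in KOTN libraries. In heterozygous cells the ratio was 0.728 to 0.794 in HetTP and 0.613 to 0.695 in HetTN libraries. In both genotypes every tdTomato-positive library was above every tdTomato-negative one. H2-Eb1 per H2-Ab1 did the same, with 0.71 to 0.739 in KOTP against 0.675 to 0.704 in KOTN libraries and 0.702 to 0.788 in HetTP against 0.567 to 0.624 in HetTN libraries. Both ratios share H2-Ab1, so they are not separate measurements, and they are given as a description.

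**Figure D4:**
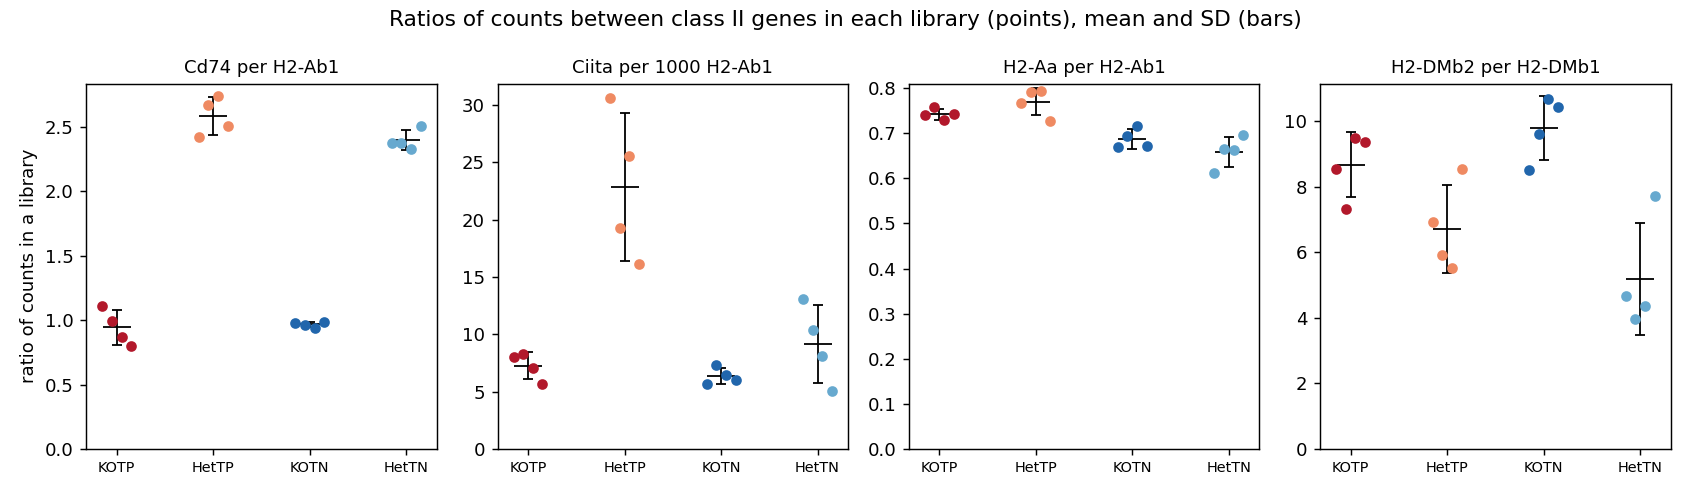
Ratios of counts between class II genes within each library (points; linear axes from 0), with the mean and SD of 4 libraries. Cd74 per H2-Ab1 is at or below 1.11 in all KO libraries and at or above 2.33 in all Het libraries, and H2-Aa per H2-Ab1 is higher in KOTP than in KOTN and in HetTP than in HetTN libraries.

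Between tdTomato-positive and tdTomato-negative cells of homozygous mice, class II levels were close. H2-Ab1 averaged 14773 ± 615 CPM in KOTP and 14567 ± 323 CPM in KOTN cells, a log2 fold change of 0.02 with a 95% interval of -0.18 to 0.22. Cd74 averaged 13905 ± 1510.2 CPM in KOTP and 14099.5 ± 539 CPM in KOTN cells (-0.02, 95% interval -0.25 to 0.20). In the fit of all 16 libraries edgeR called 0 of the 10 genes, against 0.0187% of all tested genes (0.00936% higher and 0.00936% lower), and 1 of the 10 had an unadjusted p under 0.05. The largest difference was that of H2-Ob, with 1378, 1289, 1457 and 1311 CPM in KOTP libraries, against 1044, 1073, 1177 and 1110.1 CPM in KOTN libraries. The groups did not overlap (0.30, SE 0.10).

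The fit of 16 libraries shares 1 estimate of the spread, and KO libraries varied less among themselves (common biological coefficient of variation 0.200) than Het libraries (0.845). When the 8 KO libraries were fitted alone, edgeR called 236 of 9974 genes (2.37%, with 0.892% higher and 1.47% lower), H2-Ob among them (0.32, adjusted p = 0.0058) as the only class II gene. With limma voom and sample weights on 16 libraries, H2-Aa (0.13, adjusted p = 0.0244), H2-DMb1 (0.25, adjusted p = 0.0303) and H2-Ob (0.30, adjusted p = 0.000456) were called, and DESeq2 called 0. Every KOTP library lay above every KOTN library for 4 of the 10 genes (H2-Aa, H2-Eb1, H2-Oa and H2-Ob), as it did for 3.02% of all tested genes. For none did every KOTP library lie below every KOTN library, as it did for 4.24% of all tested genes. Germinal center B cell markers summed to 278 to 315 CPM in KOTP and 429 to 507 CPM in KOTN libraries, and plasma cell markers to 79.4 to 115 CPM and 111 to 219.5 CPM. The plasma cell gene Jchain had 5.01 to 7.52 CPM in KOTP and 17.1 to 98.5 CPM in KOTN libraries and was called lower in KOTP (edgeR adjusted p = 0.0472). The part of these differences was not tested.

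Between the sorted populations of heterozygous mice, most class II genes had lower levels in tdTomato-positive cells, but the calls did not hold in the fit of these libraries alone. H2-Ab1 had 7745, 7587, 7118 and 8221 CPM in HetTP libraries, against 10229.9, 9235, 10633 and 11939.7 CPM in HetTN libraries. H2-DMb1 had 187, 199.9, 211 and 172 CPM in HetTP libraries, against 328, 276, 317 and 298 CPM in HetTN libraries. Neither gene overlapped between the groups. In the fit of 16 libraries these 2 of the 10 genes passed the test in the lower direction, against 0.468% of all tested genes lower, 0.599% higher and 1.07% in either direction, with log2 fold changes of -0.45 (edgeR adjusted p = 0.023) for H2-Ab1 and -0.66 (edgeR adjusted p = 0.0111) for H2-DMb1. When the 8 Het libraries were fitted alone, the adjusted p was 0.761 for H2-Ab1 and 0.671 for H2-DMb1, and edgeR called 0 of 9703 genes. On data simulated with the spread of each table, the fit of 16 libraries called many unchanged genes in this comparison, so its calls are not firm. In the fit of the 8 Het libraries alone, 487 of 9703 genes had an unadjusted p under 0.05, 4 of the class II genes among them. Voom with sample weights on the same 8 libraries also called 0.

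Ciita stood on the other side, with 237, 146, 182 and 132 CPM in HetTP libraries, against 133, 95.9, 85.7 and 60.6 CPM in HetTN libraries. The groups touched at the lowest HetTP and the highest HetTN library, and the difference was not called (0.89, SE 0.22, edgeR adjusted p = 0.0544). Settings that called it included library totals alone, DESeq2, and the fits without HetTN library 1 or HetTP library 4. With the 8 Het libraries alone its adjusted p was 0.836. Cd74 averaged 19799 ± 817 CPM in HetTP and 25231 ± 3379.9 CPM in HetTN cells (-0.35, edgeR adjusted p = 0.0912), and H2-Eb1 5687 ± 416 and 6253 ± 525 CPM (-0.14, edgeR adjusted p = 0.497). All HetTP libraries lay below all HetTN libraries for 6 of the 10 genes (H2-Aa, H2-Ab1, H2-DMa, H2-DMb1, H2-Ob and Cd74), as they did for 2.08% of all tested genes, and above them for 0, against 2.44%. The median log2 fold change of the 10 genes was -0.27, against 0.024 for all tested genes and -0.19 for the 164 genes at least as abundant as H2-Oa. Macrophage and monocyte markers summed to 133 to 733 CPM in HetTP and 509 to 1379 CPM in HetTN libraries, and the part of such cells was not tested. Of all calls, 56.1% were higher with TMM and 76.6% with library totals alone, which moved the median of all genes to 0.14.

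The difference between the tdTomato effects of the genotypes was called for 1 class II gene, H2-DMb1, in the positive direction, against 0.122% of all tested genes (0.0749% positive and 0.0468% negative). H2-DMb1 averaged 291 ± 22.9 CPM in KOTP and 249.8 ± 15.9 CPM in KOTN cells, and 192 ± 16.7 CPM in HetTP and 305 ± 22.6 CPM in HetTN cells (SD, n = 4 each). The tdTomato-positive cells were thus on the higher side in homozygous and on the lower side in heterozygous mice, with a difference of the effects of 0.89 on the log2 scale (SE 0.16, edgeR adjusted p = 0.0401). The call was lost with library totals alone (adjusted p = 0.0944), without the filter (adjusted p = 0.0679), with voom (adjusted p = 0.166) and without HetTP library 4 or any 1 KO library (adjusted p between 0.0579 and 0.143). H2-Ob (0.54, edgeR adjusted p = 0.157) and H2-Ab1 (0.48, edgeR adjusted p = 0.169) were called, among the alternatives run, by DESeq2 only. For Cd74 the difference was 0.33 with a 95% interval of 0.012 to 0.65, and it was not called (edgeR adjusted p = 0.48). Of the 13 calls over all genes, 61.5% were positive with TMM, and of those with library totals alone 33.3%, with the median of all genes moved to -0.18 against -0.048.

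Within a group the median spread of the class II genes was below that of a set of mostly less abundant genes. The SD of log2 CPM over 4 libraries had a median over the 10 genes of 0.0693 in KOTP, 0.0959 in HetTP, 0.0498 in KOTN and 0.17 in HetTN, where the 1372 genes whose mean log2 CPM was at least that of the lowest member had medians of 0.112, 0.278, 0.103 and 0.332. Ciita had the largest SD of the 10 in each group. The other class II genes ranked between 1 and 524 by mean CPM, above most of these 1372 genes. The part of abundance in the narrower spread was not tested.

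The promoter-binding factors that recruit Ciita had no call between the genotypes. Of 18 regulators of class II genes, 17 were tested, and Nfya, an NF-Y subunit, was listed at 0 in all 16 libraries. In KOTP against HetTP cells 0 were called higher and 4 lower, where 5.06% and 5.22% of all tested genes were. The lower ones were Bcl6, the repressor of germinal center B cells (-1.77, edgeR adjusted p = 2.88e-05), the chromatin remodeller Smarca4 (-1.01, adjusted p = 0.000789), the B cell identity factor Pax5 (-1.54, adjusted p = 0.0152) and Irf4, a factor of activated B cells and plasma cells (-1.67, adjusted p = 0.0176). In KOTN against HetTN cells, where 4.88% of all tested genes were called lower and 5.61% higher, 3 were called lower, Bcl6 (-1.91), Smarca4 (-1.05) and Pax5 (-1.61), and 2 higher, Irf8 (0.58, edgeR adjusted p = 0.0333) and Zbtb32 (1.88, adjusted p = 0.0381), which in mice has been described as a repressor of Ciita. Zbtb32 had 125 to 152 CPM in KOTN and 5.57 to 94.2 CPM in HetTN libraries. Rfx5, Rfxap, Rfxank, Nfyb, Nfyc and Creb1 were not called in either comparison, with log2 fold changes of 0.24, -0.067, 0.58, -0.0079, 0.19 and 0.79 in KOTP against HetTP cells. At SEs of 0.24 to 0.64, moderate differences in them were not detectable.

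Genes that prepare peptides and cut the invariant chain were higher or not called. Of 12 endosomal processing genes, 5 were called higher and 0 lower in KOTP against HetTP cells, and 4 higher and 0 lower in KOTN against HetTN cells. Of all tested genes 5.06% and 5.61% were called higher in these comparisons, and 5.22% and 4.88% lower. Of the 1357 genes at least as abundant as Ciita, 22.5% and 17.4% were called higher, and 9.29% and 10.8% lower. Ctss, cathepsin S, which removes the invariant chain in B cells, had 1420.5 to 1557 CPM in KOTP libraries against 810.2 to 936 CPM in HetTP libraries (0.77, edgeR adjusted p = 2.88e-05), and 1431 to 1614 CPM in KOTN against 948 to 1048 CPM in HetTN libraries (0.57, edgeR adjusted p = 0.000614). Ifi30, the thiol reductase that unfolds antigens, differed more, with 64.0 to 71.8 CPM in KOTP against 15.9 to 21.9 CPM in HetTP libraries (1.82, edgeR adjusted p = 2.8e-05) and a log2 fold change of 1.57 in tdTomato-negative cells. The proteases Ctsz (0.80) and Ctsh (0.63) and the cathepsin inhibitor Cst3 (0.59) made up the 5, and Ctsh (0.56) and Ctsz (0.50) the 4.

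Of 5 tested partners of class II at the cell surface, 3 were called higher and 0 lower in each genotype comparison, beside the same shares of all and of abundant genes. These were the tetraspanins Cd81 (0.81 in tdTomato-positive and 1.04 in tdTomato-negative cells) and Cd37 (0.76 and 0.56), and Cd83 (0.90 and 1.51), which stabilizes class II molecules at the surface. March1 and March8, ligases that remove class II from the surface, were not analysed here because such names stand as dates in the tables. Of 8 costimulatory and contact genes, Cd48 (0.90) and Cd40 (0.63) were called higher and the ICOS ligand gene Icosl lower (-2.12) in KOTP against HetTP cells. Cd40 (0.61) was higher and Icosl (-1.61) lower in KOTN against HetTN cells. Of all tested genes, 5.06% were called higher and 5.22% lower in KOTP against HetTP, and 5.61% and 4.88% in KOTN against HetTN cells. Of the 1357 genes at least as abundant as Ciita, these shares were 22.5% and 9.29%, and 17.4% and 10.8%. The few calls of these 8 genes and of the locus genes below were close to the shares of abundant genes. Those shares match these genes only in part. Icosl, with means of 12.9 CPM in KOTP and 56.0 CPM in HetTP cells, was less abundant than Ciita, as were others of the 8. Of 7 tested neighbours in the class II locus, the immunoproteasome genes Psmb9 (0.48) and Psmb8 (0.36) were called higher in KOTP against HetTP cells. In KOTN against HetTN cells Psmb9 was higher (0.48) and the bromodomain gene Brd2 lower (-0.70), and H2-Eb2, a further class II β chain gene, was not called in either (0.86 and 0.88, edgeR adjusted p = 0.0754 and 0.0663). None of the genes in these 5 lists was called in HetTP against HetTN, in KOTP against KOTN or in the difference of the effects with edgeR on 16 libraries.

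By correlation of log2 CPM over the 16 libraries, among the 4068 genes averaging 5 or more on that scale and with the class II genes left out, the genes most like H2-Ab1 were the nonclassical class I gene H2-T23 (r = 0.980), the aspartic protease gene Napsa (0.961), the adaptor gene Lat2 (0.959), Ly6d (0.959) and Gemin7 (0.957). H2-T23 averaged 1156 CPM in KOTP, 422 in HetTP, 1051 in KOTN and 609 in HetTN cells. The genes most like Cd74 were the tubulin genes Tubb4b (r = 0.953) and Tuba1b (0.945), the chaperone gene Hsp90ab1 (0.946), the initiation factor gene Eif1 (0.931) and Pcna, the replication clamp (0.921). Tubb4b averaged 244 CPM in KOTP, 471 in HetTP, 282 in KOTN and 641 in HetTN cells, so that it followed Cd74 in standing lower in both KO groups. The points of these correlations share genotype, table and scaling, and they carry no test.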

How the data were processed

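The authors deposited 1 table per genotype with raw counts over coding sequence per gene, per the file headers. The tools named in the submitters' processing notes are Trim Galore, STAR 2.2.0 (build mm10) and featureCounts. Strand, read pairs and multi-mapping reads are not described in the sources used here. Per-million columns deposited by the authors, treated as a score because their divisor is not stated, served only for the counts per mapped read. Messenger RNA of 16 libraries was measured with Smart-seq2, which carries no molecular identifiers.

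The tables were joined on symbols that occur once in each (22675 genes, of which 88.8% matched GENCODE M21). Counts were scaled with TMM and filtered by group, which left 10687 genes. The test was the robust quasi-likelihood test of edgeR 4.0.16 in R 4.3.3, with 1 mean per group, all 16 libraries, 12 residual degrees of freedom and no replicate block. P-values were adjusted by Benjamini-Hochberg across every tested gene, and calls were made under 0.05. Total counts ran from 7748787 to 15742445 per library. All 10 class II genes were named in every comparison. From each pathway list up to 4 genes past the threshold with the smallest p were named per genotype comparison, beside Cst3, named to complete its count, and the RFX, NF-Y, Creb1 and H2-Eb2 genes, which were chosen after their values were seen. The 5 genes outside the family most correlated with H2-Ab1 and with Cd74 were named too. Genes of the family, lists and tests were chosen with earlier results of these data known. Alternatives were RLE and upper quartile scaling, library totals alone, no filter, a filter at 5 CPM in 4 libraries, DESeq2 1.42.0, limma 3.58.1 voom with sample weights, a replicate block, the compared libraries alone and each library left out. After the data were seen, the compared libraries alone were also fitted with the block and with voom. The edgeR fit was tested on simulated data in which genes of known fold changed and each table kept its own spread. Unchanged genes made up more of its calls than the 0.05 threshold allows in each comparison but KOTP against KOTN, and most of them in HetTP against HetTN.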

Additional observations from a re-analysis of the deposited data

Results flagged for a closer look

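In each group of 4 libraries the distance of the highest or lowest library from its nearest neighbour was compared with the whole range of the group. Of 40 combinations of a class II gene and a group, 2 had a library farther away than Dixon's 95% critical value for 4 values, and chance gives about 1 in 20 such groups. In HetTP cells H2-Aa had 5651 CPM in library 3, where the highest of the others had 6003 CPM. Also in HetTP cells H2-Oa had 509.7 CPM in library 2, where the highest of the others had 651 CPM. These 2 values rest on 95282 counts for H2-Aa and 7009 counts for H2-Oa.

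In the edgeR fit of 16 libraries, the effect of the tdTomato sort was called different between the genotypes for H2-DMb1. The log2 fold change of tdTomato-positive against tdTomato-negative cells was 0.22 in homozygous and -0.66 in heterozygous mice, a difference of 0.89 (edgeR adjusted p = 0.0401). KOTP and KOTN libraries overlapped, and all HetTP libraries lay below all HetTN libraries. The call did not hold in several alternatives, among them limma voom with sample weights (adjusted p = 0.166) and edgeR with the replicate block (adjusted p = 0.0953). How reads shared with H2-DMb2 were counted is not known.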

How the results depend on the processing

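Over the 10 class II genes and 5 comparisons, 926 of the recomputed log2 fold changes kept their direction and their side of the threshold, 37 lost the call, 22 gained one and 15 changed sign. In KOTP against HetTP cells between 9 and 10 class II genes were called under every alternative run, and the gene lost was Ciita each time. Leaving out 1 library at a time gave between 9 and 10 class II genes in KOTP against HetTP, between 7 and 8 in KOTN against HetTN, between 2 and 4 in HetTP against HetTN, between 0 and 0 in KOTP against KOTN and between 0 and 1 for the difference of the effects. Over all genes the same leave-outs gave between 722 and 1120, between 608 and 1280, between 123 and 488, between 0 and 1, and between 1 and 41 calls, in the same order. The cause of the changes below was not tested.

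HetTP against HetTN had 114 calls over all genes and 2 class II calls in the main fit. DESeq2 gave 709 and 5, voom with sample weights 4 and 0, and the fits of the 8 libraries alone 0 and 0 (edgeR, edgeR with the block and voom). KOTP against KOTN had 2 calls over all genes, library totals alone gave 1, no filter 0, DESeq2 11, and voom 338 with 3 class II genes. The 8 libraries alone gave 236 calls and 1 class II gene with edgeR, 225 and 1 with the block, and 358 and 3 with voom. The difference of the effects had 13 calls over all genes and 1 class II gene. Library totals alone gave 6 and 0, no filter 0 class II genes, DESeq2 194 and 3, and voom 7 and 0. KOTN against HetTN had 1121 calls, and the 8 libraries alone gave 724. The fit of compared libraries alone does not apply to the difference of the effects, which uses all 16.

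Whether equal replicate numbers pair the libraries is not known. Deviations of same-numbered libraries correlated at r between -0.009 and 0.067 (KOTP and KOTN) and between -0.003 and 0.087 (HetTP and HetTN). The ranges were -0.029 to 0.020 for KOTP and HetTP, and -0.007 to 0.018 for KOTN and HetTN. Libraries with different numbers had r between -0.093 and 0.066 (KOTP and KOTN) and between -0.060 and 0.048 (HetTP and HetTN). Such low correlations do not exclude pairing. With the replicate block, HetTP against HetTN had 54 calls, KOTP against KOTN 0, and the difference of the effects 1 call and 0 class II genes, while Ciita was called in HetTP against HetTN (0.91, adjusted p = 0.0471). The block with the 8 libraries alone left 269 calls and 2 class II genes in KOTN against HetTN.

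Sign changes concerned values near 0. Ciita in KOTN against HetTN (-0.027) became 0.052 with upper quartile scaling, 0.067 with voom, 0.029 with the replicate block, and 0.012 with the block and 0.059 with voom on the 8 libraries alone, and 0.19, 0.013 and 0.0020 without HetTN 1, KOTN 1 and KOTN 4 (leave-outs from -0.19 to 0.19). Cd74 in KOTP against KOTN (-0.020) became 0.00021 with upper quartile scaling, 0.014 with voom on the 8 libraries alone and 0.037 without KOTP 4 (leave-outs from -0.088 to 0.037). H2-Ab1 in KOTP against KOTN (0.020) became -0.0013 without KOTP 3 (leave-outs from -0.0013 to 0.038). The difference of the effects for H2-Oa (0.068) became -0.072 with library totals alone, -0.0030 without HetTN 4 and -0.011 without HetTP 2 (leave-outs from -0.011 to 0.11). Ciita had the fewest counts of the class II genes (613 to 3064 per library).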
